A study of Arabidopsis thaliana with 24 samples.

Results

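The 36 genes described here were lower in cold rosettes at both harvests of a chilling series in Arabidopsis thaliana. For each of the array letters A and B, the mean signal of the 10 and 8 °C arrays was set against the 20 °C array of the same harvest, and a probe set was kept where this difference was at most -0.8 log2 units at 78 h and at 6 h in both letters. Of the 13513 probe sets listed with a single gene, 42 met that threshold. 6 of them were on a list of 9 genes left out by name, which left 36 probe sets for 36 genes. The genes were thus selected on these 4 measured differences, which are given below as a description and without a test. Only 6 of the 36 carry a symbol (AKINBETA1, ATG8E, CYP71B24, GSTU18, CCL and CP5), and the other 30 are known in the annotation by their locus code alone.

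The series measured rosettes of Col-0 plants, 4 weeks old when moved and grown on soil in 12 h of light per day at 130 µmol and 20 °C. Plants were moved 4 h into the light to 20 °C (the control), 17, 14, 12, 10 or 8 °C. Rosettes were frozen 78 h or 6 h later, 10 h into the light in both cases, so the later harvest came from plants that were also older. A difference between harvests at one of the lower temperatures thus spans both age and time in the cold, and the 20 °C plants of both harvests give that difference without cooling. Each of the 12 combinations of temperature and harvest had 2 one-colour arrays, lettered A and B, and each sample pooled 3 rosettes. Nothing in the labels says that A and B came from separate sowings, so p-values measure the spread between these samples, and 2 arrays a group limit the precision of every value. The labels mention no transgene, mutant or chemical, and all plants were of the same genotype. Signals are the authors' normalized values on the log2 scale, where 1 unit is a doubling, so each gene is compared with itself across arrays and not with other genes. In whole rosettes, fewer cells of a type and less RNA per cell cannot be told apart.

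Chilling slows enzymes and stiffens membranes, while light goes on feeding energy into photosynthesis, so carbohydrate tends to build up in the leaves of chilled plants. The SnRK1 kinase, an energy sensor of plants, acts when carbon is scarce: it turns on genes of catabolism and autophagy, the recycling of cell contents, and sugar represses many of the same genes. The 36 include AKINBETA1, a subunit of that kinase, and ATG8E, a protein of autophagy. A part of sugar or of SnRK1 in the results on the 36 was not tested.

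**Figure D1:**
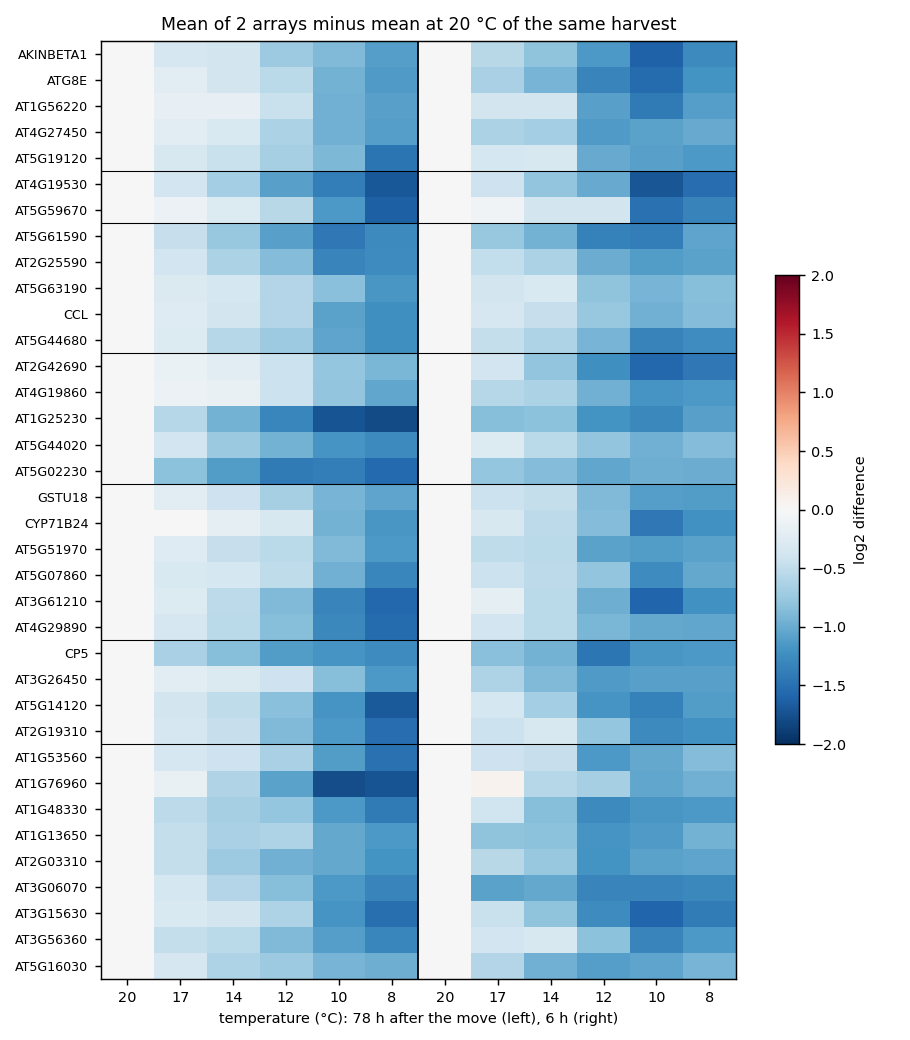
Each row is one of the 36 genes and each column a temperature in °C, with 78 h on the left and 6 h on the right; colour is the mean of the A and B arrays minus the mean at 20 °C, in log2 units, and lines across part the groups by role. At 78 h the lowest value lay at 8 °C in 33 genes, and at 6 h it lay at 10 °C in 24. The rule used the 20, 10 and 8 °C arrays, and these counts are a description.

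At 78 h the genes averaged a median of -1.19 log2 units at 10 and 8 °C relative to 20 °C (range -1.76 to -0.84), a 2.29-fold lower signal. At 6 h the median was -1.16 (range -1.62 to -0.89), or 2.23-fold lower. Over all single-gene probe sets the medians of the same differences were 0.03 at 78 h and 0.01 at 6 h. By the mean of both letters, 18 genes had the larger difference from 20 °C at 78 h and 18 at 6 h. In both letters 8 had it at 78 h and 9 at 6 h, and in the rest the letters disagreed. In all 36 genes the 4 arrays of 8 and 10 °C lay below both 20 °C arrays at 78 h, as did 15.2% of all probe sets, and in 34 at 6 h, as did 14.5%. The rule used these arrays, and nothing is read from the counts. AT1G76960 and AT5G14120 were the exceptions at 6 h, and both differed strongly between letters.

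Values were continuous across the edge of the rule. By the smallest of the 4 differences, the genes just inside were AT4G19860 at -0.82, AT5G63190 at -0.81 and AT5G16030 at -0.81. Just outside lay AT1G68600 at -0.79, AT4G14270 at -0.79 and AT1G22330 at -0.77. The same threshold was met at 78 h by 129 single-gene probe sets and at 6 h by 116. The 42 that met it at both make up 32.6% of the 78 h set and 36.2% of the 6 h set. The 36 genes lie on all chromosomes, with 8, 5, 7, 4 and 12 on chromosomes 1 to 5, and no pair is adjacent: the closest, CYP71B24 and AT3G26450, have 25 protein-coding genes between them in the TAIR10.1 gene order.

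Along the cooling series at 78 h the median difference from 20 °C was -0.32 at 17 °C, -0.48 at 14 °C, -0.73 at 12 °C, -1.09 at 10 °C and -1.27 at 8 °C, and 30 of the 36 genes were lower at every step of cooling. At 6 h it was -0.43 at 17 °C, -0.63 at 14 °C, -1.06 at 12 °C, -1.17 at 10 °C and -1.10 at 8 °C, and 2 genes were lower at every step. Expressed as a share of each gene's own difference at 10 and 8 °C, the median gene had reached 25.8% at 17 °C, 37.4% at 14 °C and 60.5% at 12 °C at 78 h. At 6 h the shares were 38.0% at 17 °C, 54.2% at 14 °C and 89.5% at 12 °C. These shares rest on the same 20 °C arrays as the rule and are a description. At each harvest 35 of 36 genes had their highest mean at 20 °C. The exceptions, highest at 17 °C, were CYP71B24 at 78 h and AT1G76960 at 6 h. The rule used the 20, 10 and 8 °C arrays, so these counts and those of genes lower at every step are a description too. Their share over all probe sets was not computed, and nothing is read from them.

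**Figure D2:**
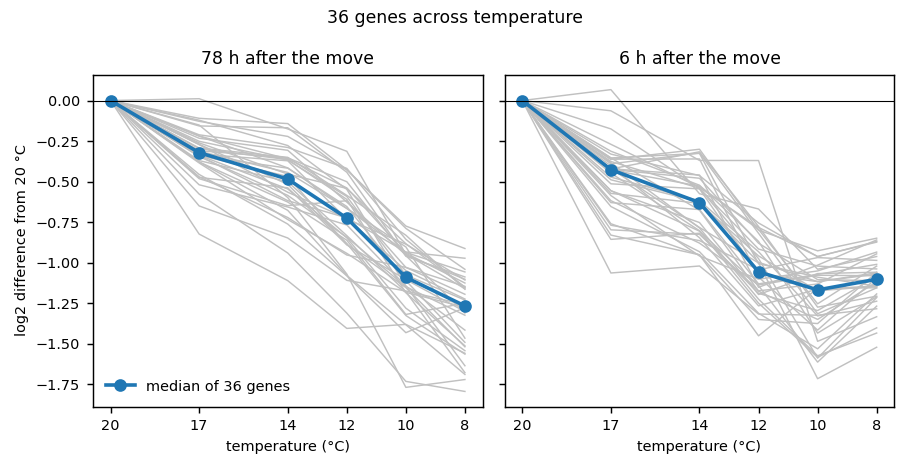
Mean difference from 20 °C in log2 units against temperature in °C, with 78 h on the left and 6 h on the right; thin lines are the 36 genes and the thick line their median. The median continues down to -1.27 at 8 °C at 78 h, and at 6 h it is -1.06 at 12 °C and -1.10 at 8 °C.

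Comparisons that the rule did not use were then tested with limma across all 22746 probe sets, with adjusted p below 0.05 as the call. Between 12 and 17 °C all 36 genes were lower in both letters at 78 h, as were 33.8% of all probe sets, and at 6 h, as were 32.5%. Singly, however, few passed: none at 78 h (0% of all probe sets) and AT2G42690 alone at 6 h (0.0572%). With the letter as a block 1 passed at 78 h (0.123%) and 9 at 6 h (0.426%). Between 78 h and 6 h, at the mild temperatures of 17, 14 and 12 °C, 13 of the 36 were higher at 78 h and none lower, against 2.51% higher and 2.55% lower of all probe sets. With the letter as a block the number higher was 25, against 8.53% of all probe sets, and none was lower, against 10.4%. Between 8 and 10 °C none passed at either harvest, as with 0% of all probe sets. The genes are described next by their known roles, a grouping made after the members were known, and the comparisons after that. Values are log2 signals, given as the A and then the B array at each temperature, and differences carry the standard error of the limma fit.

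A kinase subunit, an autophagy gene and 3 members of other protein families form the first group of 5. Its median between 12 and 17 °C was -0.35 at 78 h and -0.65 at 6 h. Medians of the other groups by role lay close by, between -0.56 and -0.38 at 78 h and between -0.64 and -0.39 at 6 h. The groups were not tested against each other. AKINBETA1 encodes a beta subunit of the SnRK1 kinase. At 78 h AKINBETA1 measured 7.86 and 7.51 at 20 °C, 7.50 and 7.22 at 17 °C, 7.61 and 7.02 at 14 °C, 6.97 and 6.94 at 12 °C, 6.91 and 6.69 at 10 °C, and 6.72 and 6.44 at 8 °C. At 6 h AKINBETA1 gave 7.60 and 7.14 at 20 °C, 6.96 and 6.66 at 17 °C, 6.45 and 6.67 at 14 °C, 6.43 and 6.02 at 12 °C, 5.97 and 5.54 at 10 °C, and 6.32 and 5.88 at 8 °C. At both harvests the 12 °C arrays lay below the 17 °C arrays, and the lowest of all was the B array of 10 °C at 6 h. Over 17, 14 and 12 °C AKINBETA1 rose by 0.68 ± 0.14 at 78 h relative to 6 h (limma adjusted p = 0.0115).

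ATG8E encodes one of the ubiquitin-like proteins that are attached to growing autophagosomes. At 78 h ATG8E measured 7.99 and 7.96 at 20 °C, 7.92 and 7.59 at 17 °C, 7.87 and 7.36 at 14 °C, 7.43 and 7.44 at 12 °C, 7.16 and 6.91 at 10 °C, and 6.71 and 6.99 at 8 °C. At 6 h ATG8E gave 7.65 and 7.63 at 20 °C, 6.99 and 7.00 at 17 °C, 6.50 and 6.92 at 14 °C, 6.30 and 6.37 at 12 °C, 6.12 and 6.11 at 10 °C, and 6.60 and 6.30 at 8 °C. At 78 h the A array of 17 °C nearly reached the 20 °C level, while at 6 h both 17 °C arrays lay clearly below it. ATG8E had the largest difference between harvests of the 36: over 17, 14 and 12 °C it rose by 0.92 ± 0.10, or 1.90-fold, at 78 h relative to 6 h (limma adjusted p = 0.000269).

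AT1G56220 encodes a protein of the dormancy- and auxin-associated family. At 78 h AT1G56220 measured 11.36 and 11.05 at 20 °C, 11.30 and 10.80 at 17 °C, 11.27 and 10.81 at 14 °C, 11.06 and 10.47 at 12 °C, 10.59 and 9.91 at 10 °C, and 10.42 and 9.82 at 8 °C. At 6 h AT1G56220 gave 11.05 and 10.31 at 20 °C, 10.76 and 9.88 at 17 °C, 10.49 and 10.15 at 14 °C, 10.07 and 9.12 at 12 °C, 9.66 and 8.87 at 10 °C, and 9.76 and 9.42 at 8 °C. The B array was the lower of the pair in every group, and at 6 h the 12 °C A array lay above the 17 °C B array. Its difference between harvests at 17, 14 and 12 °C, 0.87 ± 0.24, fell just short without the letter as a block (limma adjusted p = 0.0507) and passed with it (adjusted p = 1.46e-05).

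AT4G27450 belongs to a family of aluminium-induced proteins. At 78 h AT4G27450 measured 7.08 and 7.29 at 20 °C, 6.98 and 6.93 at 17 °C, 7.02 and 6.74 at 14 °C, 6.40 and 6.72 at 12 °C, 6.06 and 6.41 at 10 °C, and 6.00 and 6.17 at 8 °C. At 6 h AT4G27450 gave 7.15 and 6.84 at 20 °C, 6.34 and 6.39 at 17 °C, 6.34 and 6.31 at 14 °C, 5.83 and 5.90 at 12 °C, 5.84 and 6.01 at 10 °C, and 5.98 and 5.99 at 8 °C. At 6 h the arrays of 12, 10 and 8 °C all lay between 5.83 and 6.01, below every warmer array. Over the mild temperatures AT4G27450 rose by 0.61 ± 0.08 at 78 h relative to 6 h (limma adjusted p = 0.00082). AT5G19120 encodes a member of the aspartyl protease family. At 78 h AT5G19120 measured 8.35 and 8.11 at 20 °C, 7.83 and 8.01 at 17 °C, 7.81 and 7.77 at 14 °C, 7.69 and 7.44 at 12 °C, 7.29 and 7.37 at 10 °C, and 6.56 and 6.97 at 8 °C. At 6 h AT5G19120 gave 8.18 and 7.96 at 20 °C, 7.65 and 7.78 at 17 °C, 7.59 and 7.90 at 14 °C, 7.00 and 7.13 at 12 °C, 7.03 and 6.93 at 10 °C, and 6.80 and 7.05 at 8 °C. Its 8 °C arrays at 78 h lay below both 10 °C arrays. The difference of -0.56 ± 0.15 between 8 and 10 °C at 78 h was the largest of the 36 and did not pass (limma adjusted p = 1).

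Of 2 receptor genes, AT4G19530 encodes an immune receptor of the class with TIR, nucleotide-binding and leucine-rich repeat domains. At 78 h AT4G19530 measured 10.13 and 10.16 at 20 °C, 9.77 and 9.76 at 17 °C, 9.54 and 9.40 at 14 °C, 9.02 and 9.11 at 12 °C, 8.64 and 8.89 at 10 °C, and 8.34 and 8.57 at 8 °C. At 6 h AT4G19530 gave 9.93 and 10.16 at 20 °C, 9.54 and 9.71 at 17 °C, 9.13 and 9.38 at 14 °C, 8.86 and 9.22 at 12 °C, 8.23 and 8.42 at 10 °C, and 8.41 and 8.63 at 8 °C. At each harvest no 2 of the groups at 20, 17 and 14 °C overlapped. AT4G19530 had the lowest mean of both differences that the rule used, -1.58, and did not differ detectably between harvests at 17, 14 and 12 °C (0.13 ± 0.08, limma adjusted p = 0.535).

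AT5G59670 encodes a receptor-like kinase with leucine-rich repeats. At 78 h AT5G59670 measured 10.06 and 9.40 at 20 °C, 9.76 and 9.45 at 17 °C, 9.54 and 9.36 at 14 °C, 8.97 and 9.39 at 12 °C, 8.73 and 8.43 at 10 °C, and 8.11 and 8.07 at 8 °C. At 6 h AT5G59670 gave 9.79 and 10.06 at 20 °C, 9.79 and 9.93 at 17 °C, 9.60 and 9.51 at 14 °C, 9.48 and 9.62 at 12 °C, 8.56 and 8.32 at 10 °C, and 8.39 and 8.78 at 8 °C. At 6 h its arrays of 17, 14 and 12 °C lay between 9.48 and 9.93, near those of 20 °C, and the drop came between 12 and 10 °C. At 6 h AT5G59670 at 12 °C had covered the smallest share of its own difference at 10 and 8 °C, 26.3%. At the mild temperatures it was among 3 genes with a negative difference between 78 h and 6 h (-0.24 ± 0.12, limma adjusted p = 0.339), with AT2G19310 and AT3G56360.

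Among 5 DNA, RNA and clock-related genes, AT5G61590 (DEWAX) encodes an AP2/ERF transcription factor that represses genes of cuticular wax synthesis. At 78 h AT5G61590 measured 9.37 and 9.27 at 20 °C, 8.96 and 8.77 at 17 °C, 8.85 and 8.27 at 14 °C, 8.27 and 8.21 at 12 °C, 8.19 and 7.58 at 10 °C, and 8.17 and 7.92 at 8 °C. At 6 h AT5G61590 gave 9.04 and 8.87 at 20 °C, 8.36 and 8.04 at 17 °C, 7.87 and 8.14 at 14 °C, 7.75 and 7.46 at 12 °C, 7.82 and 7.34 at 10 °C, and 8.18 and 7.61 at 8 °C. At 6 h both letters were lowest at 12 or 10 °C and higher at 8 °C. Over the mild temperatures AT5G61590 rose by 0.62 ± 0.14 at 78 h relative to 6 h (limma adjusted p = 0.0222), a call that leaving out 1 array ended in 7 of 24 cases (adjusted p up to 0.0827).

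CCL, named for its likeness to the clock-regulated gene CCR, has a transcript known for rapid, clock-controlled decay. At 78 h CCL measured 13.72 and 13.66 at 20 °C, 13.49 and 13.39 at 17 °C, 13.48 and 13.17 at 14 °C, 13.09 and 13.11 at 12 °C, 12.67 and 12.56 at 10 °C, and 12.54 and 12.38 at 8 °C. At 6 h CCL gave 13.61 and 13.46 at 20 °C, 13.30 and 13.11 at 17 °C, 13.15 and 12.99 at 14 °C, 12.92 and 12.64 at 12 °C, 12.69 and 12.46 at 10 °C, and 12.75 and 12.58 at 8 °C. Its A array lay above its B array in all groups but 12 °C at 78 h. CCL rose by 0.27 ± 0.07 at 78 h relative to 6 h at the mild temperatures (limma adjusted p = 0.0479), a call lost in 19 of 24 omissions (adjusted p up to 0.224).

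AT5G44680 encodes a DNA glycosylase, an enzyme of base excision repair. At 78 h AT5G44680 measured 10.51 and 10.18 at 20 °C, 10.09 and 10.06 at 17 °C, 9.90 and 9.65 at 14 °C, 9.64 and 9.60 at 12 °C, 9.28 and 9.31 at 10 °C, and 9.16 and 9.08 at 8 °C. At 6 h AT5G44680 gave 10.14 and 10.02 at 20 °C, 9.68 and 9.54 at 17 °C, 9.24 and 9.69 at 14 °C, 9.15 and 9.15 at 12 °C, 8.77 and 8.74 at 10 °C, and 8.72 and 8.97 at 8 °C. The 8 °C arrays at 78 h were below the 10 °C arrays, while at 6 h they overlapped. AT5G44680 rose by 0.41 ± 0.08 between harvests at the mild temperatures (limma adjusted p = 0.00869). AT5G63190 encodes a protein with MA3 domains, found in regulators of translation. At 78 h AT5G63190 measured 9.71 and 9.52 at 20 °C, 9.51 and 9.14 at 17 °C, 9.44 and 9.09 at 14 °C, 8.93 and 9.13 at 12 °C, 8.79 and 8.78 at 10 °C, and 8.40 and 8.50 at 8 °C. At 6 h AT5G63190 gave 9.41 and 9.13 at 20 °C, 9.08 and 8.73 at 17 °C, 8.98 and 8.96 at 14 °C, 8.57 and 8.37 at 12 °C, 8.62 and 8.06 at 10 °C, and 8.57 and 8.27 at 8 °C. The colder arrays lay in a band of 8.06 to 8.62 at 6 h for 12, 10 and 8 °C together. AT5G63190 rose by 0.42 ± 0.11 between harvests (limma adjusted p = 0.0418), and 14 of 24 omissions ended that call (adjusted p up to 0.149). AT2G25590 encodes a protein with Tudor-like Agenet domains. At 78 h AT2G25590 measured 8.05 and 7.67 at 20 °C, 7.58 and 7.39 at 17 °C, 7.29 and 7.18 at 14 °C, 6.87 and 7.12 at 12 °C, 6.41 and 6.67 at 10 °C, and 6.45 and 6.77 at 8 °C. At 6 h AT2G25590 gave 7.65 and 7.96 at 20 °C, 7.13 and 7.50 at 17 °C, 7.06 and 7.30 at 14 °C, 6.60 and 7.01 at 12 °C, 6.65 and 6.72 at 10 °C, and 6.56 and 6.92 at 8 °C. Its 10 and 8 °C arrays overlapped at both harvests, and its difference between harvests at 17, 14 and 12 °C did not pass (0.14 ± 0.11, limma adjusted p = 0.674).

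Among 5 lipases and phosphatases, AT2G42690 encodes a class 3 lipase. At 78 h AT2G42690 measured 11.42 and 11.48 at 20 °C, 11.27 and 11.37 at 17 °C, 11.31 and 11.15 at 14 °C, 11.00 and 11.05 at 12 °C, 10.63 and 10.73 at 10 °C, and 10.53 and 10.55 at 8 °C. At 6 h AT2G42690 gave 11.38 and 11.33 at 20 °C, 10.97 and 10.97 at 17 °C, 10.44 and 10.69 at 14 °C, 10.22 and 10.03 at 12 °C, 9.85 and 9.70 at 10 °C, and 9.92 and 9.91 at 8 °C. At 12 °C it had covered 50.7% of its difference at 10 and 8 °C at 78 h and 81.5% at 6 h. At 12 °C both 78 h arrays lay above both 6 h arrays. At the mild temperatures AT2G42690 rose by 0.64 ± 0.05 at 78 h relative to 6 h (limma adjusted p = 4.17e-05).

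AT4G19860 encodes a phospholipase related to lecithin:cholesterol acyltransferases. At 78 h AT4G19860 measured 10.28 and 9.86 at 20 °C, 10.14 and 9.77 at 17 °C, 10.21 and 9.65 at 14 °C, 9.73 and 9.56 at 12 °C, 9.38 and 9.18 at 10 °C, and 9.15 and 8.90 at 8 °C. At 6 h AT4G19860 gave 9.96 and 9.97 at 20 °C, 9.45 and 9.33 at 17 °C, 9.22 and 9.44 at 14 °C, 9.00 and 9.01 at 12 °C, 8.95 and 8.63 at 10 °C, and 8.88 and 8.75 at 8 °C. At 78 h its arrays of 17 and 14 °C overlapped those of 20 °C, whereas at 6 h they lay below. AT4G19860 rose by 0.60 ± 0.11 between harvests at 17, 14 and 12 °C (limma adjusted p = 0.00607).

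AT1G25230 encodes a purple acid phosphatase. At 78 h AT1G25230 measured 8.48 and 7.88 at 20 °C, 7.82 and 7.39 at 17 °C, 7.69 and 6.79 at 14 °C, 6.92 and 6.81 at 12 °C, 6.53 and 6.36 at 10 °C, and 6.37 and 6.40 at 8 °C. At 6 h AT1G25230 gave 8.01 and 7.65 at 20 °C, 7.19 and 6.75 at 17 °C, 6.96 and 7.06 at 14 °C, 6.94 and 6.33 at 12 °C, 6.92 and 6.15 at 10 °C, and 6.73 and 6.76 at 8 °C. It had the lowest mean difference of all at 78 h, -1.76, or 3.40-fold lower at 10 and 8 °C, and at 6 h its arrays of 12, 10 and 8 °C overlapped. AT5G44020 encodes an acid phosphatase of the HAD superfamily. At 78 h AT5G44020 measured 10.66 and 10.29 at 20 °C, 10.20 and 9.99 at 17 °C, 10.09 and 9.39 at 14 °C, 9.68 and 9.39 at 12 °C, 9.58 and 9.00 at 10 °C, and 9.29 and 9.11 at 8 °C. At 6 h AT5G44020 gave 10.47 and 10.11 at 20 °C, 10.00 and 10.05 at 17 °C, 9.77 and 9.74 at 14 °C, 9.64 and 9.38 at 12 °C, 9.65 and 9.01 at 10 °C, and 9.59 and 9.25 at 8 °C. No difference between harvests was detectable at the mild temperatures (0.03 ± 0.15, limma adjusted p = 0.976). AT5G02230 encodes another HAD-type hydrolase. At 78 h AT5G02230 measured 7.11 and 6.31 at 20 °C, 6.12 and 5.65 at 17 °C, 5.84 and 5.35 at 14 °C, 5.48 and 5.12 at 12 °C, 5.40 and 5.25 at 10 °C, and 5.23 and 5.07 at 8 °C. At 6 h AT5G02230 gave 6.32 and 6.01 at 20 °C, 5.67 and 5.12 at 17 °C, 5.40 and 5.19 at 14 °C, 5.20 and 5.04 at 12 °C, 5.35 and 5.04 at 10 °C, and 5.41 and 4.94 at 8 °C. At 6 h its arrays of 17 °C and below lay between 4.94 and 5.67, with 20 °C above them. Whether these low values neared the lower limit of the signal was not tested.

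Of 6 metabolic enzymes, GSTU18 encodes a glutathione S-transferase of the tau class. At 78 h GSTU18 measured 9.73 and 9.73 at 20 °C, 9.50 and 9.53 at 17 °C, 9.41 and 9.22 at 14 °C, 8.93 and 9.21 at 12 °C, 8.64 and 8.94 at 10 °C, and 8.57 and 8.78 at 8 °C. At 6 h GSTU18 gave 9.60 and 9.72 at 20 °C, 9.18 and 9.28 at 17 °C, 9.12 and 9.23 at 14 °C, 8.66 and 8.90 at 12 °C, 8.56 and 8.54 at 10 °C, and 8.45 and 8.64 at 8 °C. The 12 °C arrays lay below the 17 °C arrays at both harvests, by -0.45 ± 0.13 at 78 h and -0.46 ± 0.13 at 6 h, which passed at 6 h only with the letter as a block (limma adjusted p = 0.0415). CYP71B24 encodes a cytochrome P450. At 78 h CYP71B24 measured 8.02 and 8.08 at 20 °C, 7.93 and 8.19 at 17 °C, 7.93 and 7.82 at 14 °C, 7.52 and 7.96 at 12 °C, 6.99 and 7.21 at 10 °C, and 6.78 and 6.99 at 8 °C. At 6 h CYP71B24 gave 7.87 and 8.28 at 20 °C, 7.58 and 7.94 at 17 °C, 7.34 and 7.76 at 14 °C, 7.20 and 7.21 at 12 °C, 6.69 and 6.59 at 10 °C, and 6.71 and 7.02 at 8 °C. At 78 h its arrays of 20 and 17 °C overlapped, and those of 10 and 8 °C lay below all others. At 6 h the 12 °C arrays already lay below all warmer ones.

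AT5G51970 encodes a sorbitol dehydrogenase. At 78 h AT5G51970 measured 11.42 and 11.44 at 20 °C, 11.23 and 11.11 at 17 °C, 11.14 and 10.81 at 14 °C, 11.03 and 10.75 at 12 °C, 10.52 and 10.58 at 10 °C, and 10.28 and 10.28 at 8 °C. At 6 h AT5G51970 gave 11.18 and 10.90 at 20 °C, 10.83 and 10.23 at 17 °C, 10.39 and 10.60 at 14 °C, 10.11 and 9.83 at 12 °C, 10.22 and 9.63 at 10 °C, and 10.01 and 9.93 at 8 °C. At 12 °C both 78 h arrays lay above both 6 h arrays, and at 78 h the descent continued down to 8 °C. AT5G51970 rose by 0.68 ± 0.12 at 78 h relative to 6 h at the mild temperatures (limma adjusted p = 0.00408). AT5G07860 encodes an acyltransferase of the HXXXD family. At 78 h AT5G07860 measured 9.30 and 9.30 at 20 °C, 9.00 and 8.97 at 17 °C, 8.91 and 8.97 at 14 °C, 8.66 and 8.93 at 12 °C, 8.17 and 8.51 at 10 °C, and 7.82 and 8.15 at 8 °C. At 6 h AT5G07860 gave 9.06 and 9.38 at 20 °C, 8.60 and 8.98 at 17 °C, 8.34 and 9.03 at 14 °C, 8.29 and 8.55 at 12 °C, 7.93 and 7.99 at 10 °C, and 8.07 and 8.32 at 8 °C. At 78 h the 17, 14 and 12 °C arrays lay between 8.66 and 9.00, and the 10 and 8 °C arrays stood below them.

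AT3G61210 encodes a methyltransferase that uses S-adenosylmethionine. At 78 h AT3G61210 measured 8.09 and 8.84 at 20 °C, 7.94 and 8.45 at 17 °C, 7.78 and 8.11 at 14 °C, 7.23 and 7.94 at 12 °C, 6.98 and 7.30 at 10 °C, and 6.48 and 7.32 at 8 °C. At 6 h AT3G61210 gave 8.27 and 8.59 at 20 °C, 7.87 and 8.64 at 17 °C, 7.52 and 8.26 at 14 °C, 7.03 and 7.88 at 12 °C, 6.63 and 7.06 at 10 °C, and 6.94 and 7.49 at 8 °C. The B array was the higher in every group, by up to 0.84, and the 12 and 17 °C groups overlapped at 6 h across letters. Its difference of -0.80 ± 0.41 between 12 and 17 °C at 6 h passed only with the letter as a block (limma adjusted p = 0.00969). AT4G29890 encodes a protein like choline monooxygenase. At 78 h AT4G29890 measured 8.44 and 8.31 at 20 °C, 8.00 and 8.07 at 17 °C, 7.95 and 7.70 at 14 °C, 7.49 and 7.56 at 12 °C, 6.96 and 7.22 at 10 °C, and 6.69 and 6.97 at 8 °C. At 6 h AT4G29890 gave 8.16 and 8.37 at 20 °C, 7.77 and 8.01 at 17 °C, 7.54 and 7.91 at 14 °C, 7.25 and 7.45 at 12 °C, 7.34 and 7.15 at 10 °C, and 7.09 and 7.36 at 8 °C. At 78 h the groups formed a near-regular descent, and at 6 h those of 12, 10 and 8 °C overlapped.

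CP5 encodes a protein with a START lipid-binding domain. At 78 h CP5 measured 12.46 and 12.44 at 20 °C, 11.77 and 11.82 at 17 °C, 11.70 and 11.49 at 14 °C, 11.26 and 11.41 at 12 °C, 11.16 and 11.38 at 10 °C, and 11.05 and 11.32 at 8 °C. At 6 h CP5 gave 11.90 and 12.20 at 20 °C, 11.16 and 11.28 at 17 °C, 10.89 and 11.31 at 14 °C, 10.68 and 10.52 at 12 °C, 11.14 and 10.64 at 10 °C, and 10.97 and 10.81 at 8 °C. At 6 h its lowest array was B at 12 °C, and both arrays of 8 °C lay above both of 12 °C. CP5 rose by 0.61 ± 0.10 at 78 h relative to 6 h at the mild temperatures (limma adjusted p = 0.00316). AT3G26450 belongs to the major latex protein family, whose fold can hold small hydrophobic ligands. At 78 h AT3G26450 measured 10.85 and 10.58 at 20 °C, 10.75 and 10.25 at 17 °C, 10.78 and 10.07 at 14 °C, 10.51 and 10.07 at 12 °C, 10.10 and 9.61 at 10 °C, and 9.72 and 9.40 at 8 °C. At 6 h AT3G26450 gave 10.87 and 10.42 at 20 °C, 10.34 and 9.72 at 17 °C, 10.30 and 9.23 at 14 °C, 10.06 and 8.95 at 12 °C, 9.89 and 9.25 at 10 °C, and 9.94 and 9.19 at 8 °C. The B array was the lower in every group, by up to 1.11.

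AT5G14120 encodes a transporter of the major facilitator superfamily. At 78 h AT5G14120 measured 11.07 and 10.29 at 20 °C, 10.72 and 9.89 at 17 °C, 10.73 and 9.62 at 14 °C, 10.26 and 9.42 at 12 °C, 9.75 and 9.24 at 10 °C, and 9.22 and 8.77 at 8 °C. At 6 h AT5G14120 gave 10.85 and 9.60 at 20 °C, 10.47 and 9.28 at 17 °C, 9.94 and 9.16 at 14 °C, 9.72 and 8.38 at 12 °C, 9.74 and 8.01 at 10 °C, and 9.91 and 8.31 at 8 °C. It differed most between letters, with B lower than A by 1.03 on average, which exceeds its own difference between 12 and 17 °C at either harvest. AT2G19310 encodes a small heat shock protein of the HSP20 type. At 78 h AT2G19310 measured 9.77 and 9.82 at 20 °C, 9.49 and 9.43 at 17 °C, 9.28 and 9.38 at 14 °C, 8.99 and 8.83 at 12 °C, 8.49 and 8.80 at 10 °C, and 8.35 and 8.21 at 8 °C. At 6 h AT2G19310 gave 9.87 and 10.00 at 20 °C, 9.46 and 9.56 at 17 °C, 9.53 and 9.70 at 14 °C, 9.20 and 9.12 at 12 °C, 8.45 and 8.87 at 10 °C, and 8.40 and 9.05 at 8 °C. Its levels at 6 h stayed between 9.12 and 9.70 over 17, 14 and 12 °C, and the 10 and 8 °C arrays lay below them.

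No role is given here for the other 9 genes. At 78 h AT3G06070 measured 6.30 and 6.55 at 20 °C, 5.90 and 6.25 at 17 °C, 6.03 and 5.64 at 14 °C, 5.48 and 5.68 at 12 °C, 5.23 and 5.32 at 10 °C, and 5.07 and 5.12 at 8 °C. At 6 h AT3G06070 gave 6.18 and 6.41 at 20 °C, 5.17 and 5.29 at 17 °C, 5.22 and 5.33 at 14 °C, 5.03 and 4.93 at 12 °C, 5.03 and 4.91 at 10 °C, and 5.16 and 4.86 at 8 °C. At 17 °C it had covered 28.0% of its difference at 10 and 8 °C at 78 h and 81.6% at 6 h. Its 6 h arrays of 17 °C and below all lay between 4.86 and 5.33. Whether they neared the lower limit of the signal was not tested. AT3G06070 rose by 0.67 ± 0.09 at 78 h relative to 6 h at the mild temperatures (limma adjusted p = 0.000744). At 78 h AT3G15630 measured 9.32 and 8.78 at 20 °C, 8.93 and 8.57 at 17 °C, 8.95 and 8.42 at 14 °C, 8.64 and 8.24 at 12 °C, 8.15 and 7.57 at 10 °C, and 7.74 and 7.33 at 8 °C. At 6 h AT3G15630 gave 9.20 and 8.44 at 20 °C, 8.51 and 8.22 at 17 °C, 7.76 and 8.27 at 14 °C, 7.73 and 7.40 at 12 °C, 7.61 and 6.86 at 10 °C, and 7.74 and 7.08 at 8 °C. In each pair of 78 h and 6 h arrays at 17, 14 and 12 °C it was higher at 78 h, by 0.64 ± 0.20 on average, which passed only with the letter as a block (limma adjusted p = 0.00169).

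AT1G76960 differed by 0.02 ± 0.36 in that comparison (limma adjusted p = 0.994). At 78 h AT1G76960 measured 9.33 and 8.55 at 20 °C, 9.07 and 8.51 at 17 °C, 8.82 and 7.86 at 14 °C, 7.94 and 7.80 at 12 °C, 7.41 and 6.92 at 10 °C, and 7.62 and 6.82 at 8 °C. At 6 h AT1G76960 gave 9.26 and 8.15 at 20 °C, 9.17 and 8.38 at 17 °C, 8.79 and 7.48 at 14 °C, 8.44 and 7.64 at 12 °C, 8.25 and 7.08 at 10 °C, and 8.59 and 6.90 at 8 °C. The difference of B minus A reached -1.69, and at 6 h the 8 °C A array stood above the 20 °C B array. It had the largest difference of the 36 between 12 and 17 °C at 78 h, -0.92 ± 0.63, with the widest error but that of AT5G14120 (limma adjusted p = 1). The other 6 of these genes are AT3G56360, AT1G48330, AT1G53560, AT2G03310, AT1G13650 and AT5G16030. Of them AT1G53560 rose by 0.55 ± 0.14 at 78 h relative to 6 h (limma adjusted p = 0.0363), a call lost in 9 of 24 omissions (adjusted p up to 0.128). AT1G48330 had the largest difference of the 36 between 12 and 17 °C at 6 h, -0.86 ± 0.33, which passed only with the letter as a block (adjusted p = 0.039).

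**Figure D3:**
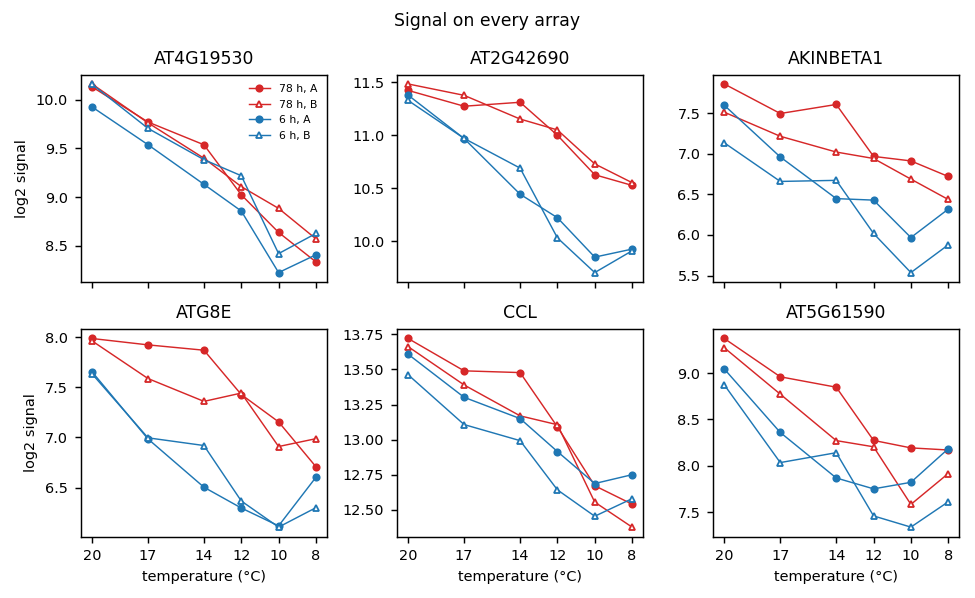
Log2 signal on every array for 6 genes, AT4G19530, AT2G42690, AKINBETA1, ATG8E, CCL and AT5G61590, against temperature in °C; lines join the arrays of one harvest and letter. For AT2G42690 the 78 h lines run above the 6 h lines at every temperature below 20 °C, while for AT4G19530 the lines of the harvests cross in both letters.

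The arrays of 12 and 17 °C enter neither difference of the rule, so the comparison between them asks whether these genes also differ with temperature within the range that did not choose them. At 78 h the median of the 36 was -0.41 (range -0.92 to -0.14), against -0.02 over all probe sets. At 6 h the median was -0.53 (range -0.86 to -0.25), against -0.01 over all probe sets. Both 12 °C arrays lay below both 17 °C arrays in 30 genes at 78 h (16.3% of all probe sets) and in 29 at 6 h (11.9%). The median was -0.45 in A and -0.33 in B at 78 h, and -0.52 in A and -0.57 in B at 6 h.

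Gene by gene few tests passed. At 78 h none of the 36 passed limma's adjusted p, while 16 of the 36 had an unadjusted p below 0.05, against 2.92% of all probe sets. With the letter as a block AT4G19530 alone passed, at -0.70 ± 0.14 (limma adjusted p = 0.0123 with the block and 0.294 without it). At 6 h AT2G42690 fell by 0.84 ± 0.09 at 12 °C relative to 17 °C (limma adjusted p = 0.00252), and 21 of the 36 had an unadjusted p below 0.05, against 4.21% of all probe sets. That call of AT2G42690 was lost when the 17 °C A array was left out (adjusted p = 0.0585), when the 12 °C B array was left out (adjusted p = 0.0636) and when the 6 h arrays were fitted alone (adjusted p = 0.171). With the letter as a block 9 of the 36 passed at 6 h. These were AT2G42690, AT4G19530, AT3G61210, CCL, AT2G03310, AT1G56220, AT1G48330, GSTU18 and AT5G19120.

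Taking the mean of both harvests, a contrast added after the data were seen, AT2G42690 fell by 0.57 ± 0.06 at 12 °C (limma adjusted p = 0.00168) and AT4G19530 fell by 0.64 ± 0.10 (adjusted p = 0.0232), against 0.0747% of all probe sets called lower. The call of AT4G19530 was lost in 7 of 24 omissions (adjusted p up to 0.162), and its value stayed between -0.68 and -0.55 in them. With the letter as a block 23 of the 36 passed, against 0.954% of all probe sets.

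Whether the difference between 12 and 17 °C itself differed between harvests was tested as an interaction. None of the 36 passed limma's adjusted p with or without the block, and 1 had an unadjusted p below 0.05, against 2% of all probe sets. Of all probe sets 0.00879% were called lower and 0.0044% higher with the block. The median of the 78 h difference minus the 6 h difference was 0.14, and it ranged between 0.04 and 0.22 when 1 array was left out. AT2G42690 had 0.54 ± 0.13 (limma adjusted p = 1). An unequal response at the 2 harvests was thus not detectable for any single gene with 2 arrays a group.

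**Figure D4:**
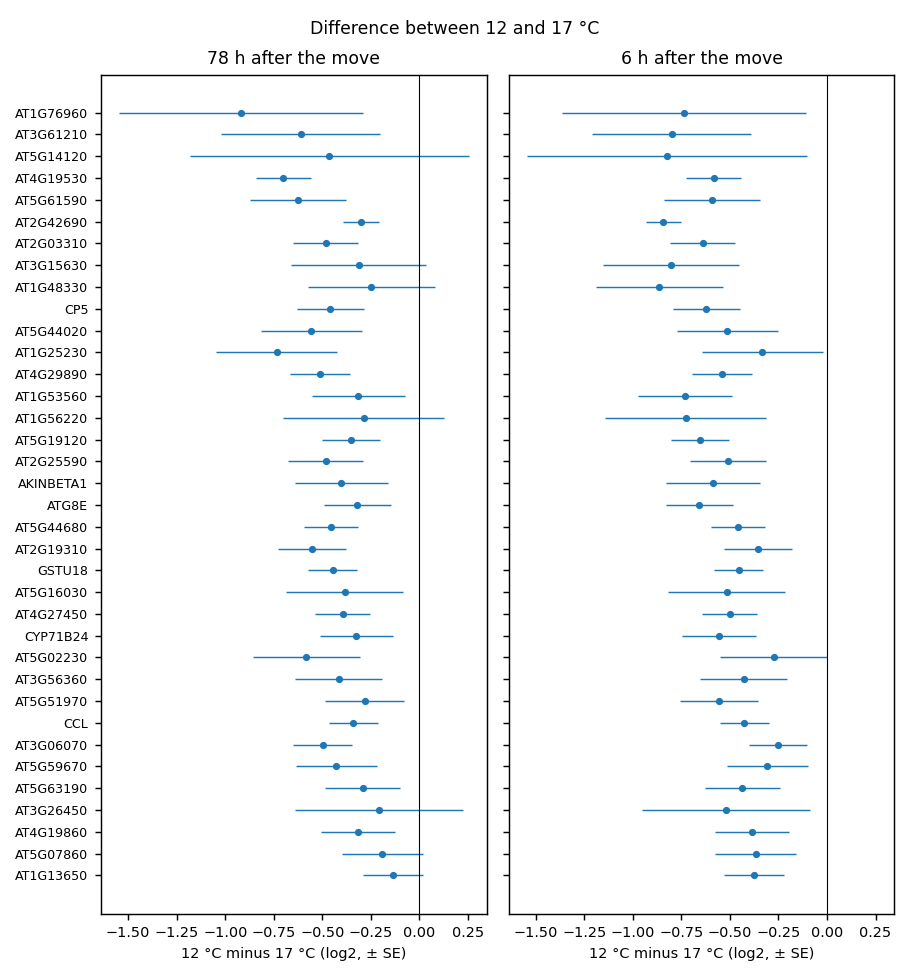
Signal at 12 °C minus signal at 17 °C in log2 units for each of the 36 genes, with 78 h on the left and 6 h on the right; points are the means of the A and B arrays and bars the standard error of the limma fit. Every point lies below 0, with AT2G42690 at -0.30 at 78 h and -0.84 at 6 h.

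The rule used the mean of 8 and 10 °C and not their difference, although the arrays are shared. At 78 h the 8 °C arrays were lower than those of 10 °C in both letters in 27 of the 36 genes, against 33.7% of all probe sets, and without overlap in 18, against 13.3%. The median was -0.19 (range -0.56 to 0.15). At 6 h none was lower in both letters, against 17.5% of all probe sets, and 15 were higher in both, against 32.8%. The median was 0.09 (range -0.06 to 0.37), against 0.02 over all probe sets. No gene passed limma's adjusted p at either harvest with or without the block, and at an unadjusted p below 0.05 there were 3 at 78 h (AT5G19120, AT5G59670 and AT4G19530), against 1.58% of all probe sets, and none at 6 h, against 0.677%. The median at 6 h rested on single arrays: it was -0.05 when the 10 °C B array was left out and 0.24 when the 10 °C A array was. At 78 h it stayed between -0.23 and -0.18 when 1 array was left out.

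The difference between harvests in that last step was a contrast added after the data were seen. It was negative in 35 of the 36 genes, against 62.7% of all probe sets, with a median of -0.29 against -0.04 over all probe sets. It ranged between -0.43 and -0.13 when 1 array was left out. None of the 36 passed limma's adjusted p, and 5 had an unadjusted p below 0.05, against 0.976% of all probe sets: AT4G19530, AT5G19120, AT5G59670, AT2G42690 and ATG8E.

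**Figure D5:**
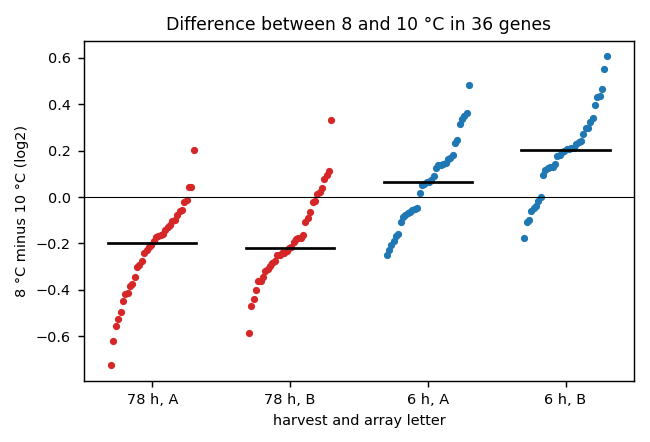
Signal at 8 °C minus signal at 10 °C in log2 units for each of the 36 genes, by harvest and letter; genes are sorted within a column and the line is their median. The 78 h points lie mostly below 0, with 27 genes lower in both letters, against 33.7% of all probe sets. The 6 h points scatter around and above 0, with 15 genes higher in both letters, against 32.8%. Without the 10 °C B array the 6 h median was -0.05.

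Between harvests at 17, 14 and 12 °C, in arrays that the rule did not use, the median of the 36 was 0.37 higher at 78 h than at 6 h, against 0.00 over all probe sets. In 20 of the 36 each of the 6 pairs of temperature and letter was higher at 78 h, as in 8.4% of all probe sets. The 13 genes that rose include AKINBETA1, ATG8E and AT4G27450 of the first 5, 4 of the 5 DNA, RNA and clock-related genes and 2 of the 5 lipases and phosphatases. They also include 1 of the 6 metabolic enzymes, CP5 among the 4 lipid-binding, transport and chaperone genes, and 2 of the 9 without a role. Neither receptor gene passed, with or without the letter as a block. With the block 25 rose: all 5 of the first group, 4 of the 5 DNA, RNA and clock-related genes and 4 of the 5 lipases and phosphatases. The rest were 4 of the 6 metabolic enzymes, 3 of the 4 lipid-binding, transport and chaperone genes and 5 of the 9 without a role. Over the omissions of 1 array the number without the block was between 9 and 14.

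Beside these stand the 20 °C plants and the coldest ones. At 20 °C the 78 h array was higher than the 6 h array in both letters in 24 of the 36 genes, against 27% of all probe sets, with a median of 0.23 in A and 0.16 in B. ATG8E was higher by 0.33 in A and 0.33 in B, AKINBETA1 by 0.26 and 0.38, and AT2G42690 by 0.04 and 0.16. As a mean of A and B, CP5 was higher at 20 °C by 0.40, AT5G51970 by 0.39, AT5G61590 by 0.36, AT5G63190 by 0.345 and AT1G53560 by 0.34. For AT5G44680 it was 0.26, for AT4G27450 0.19, for CCL 0.16, for AT3G06070 0.13 and for AT4G19860 0.10. These are the other genes called higher at the mild temperatures. Their rises there were not tested against the difference at 20 °C. At 12 °C 30 of the 36 were higher at 78 h in both letters, against 30.6% of all probe sets, with medians of 0.39 in A and 0.52 in B. At 8 °C 11 were higher and 13 lower in both letters, against 31.6% and 33.3% of all probe sets, with medians of -0.10 in A and 0.12 in B. The 20 and 8 °C arrays were used by the rule and these values are a description.

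Probe sets that met the threshold at a single harvest give the nearest points of reference. Between 12 and 17 °C at 78 h, the 36 genes had a median of -0.41, the 87 single-gene probe sets lowered at 78 h only one of -0.42 and the 74 lowered at 6 h only one of -0.15. At 6 h the medians were -0.53 for the 36, -0.20 for those lowered at 78 h only and -0.48 for those lowered at 6 h only. Of the 74 lowered at 6 h only, 34 were called higher at 78 h than at 6 h at the mild temperatures, against 5 higher and 6 lower of the 87 lowered at 78 h only. The step from 10 to 8 °C was much alike in the 3 sets. Its median at 78 h was -0.19 for the 36, -0.23 for those lowered at 78 h only and -0.16 for those lowered at 6 h only. The difference between harvests in that step was negative in 35 of the 36, 77 of the 87 and 69 of the 74. Its medians were -0.29, -0.23 and -0.24. These medians and counts were not tested against each other.

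The letters A and B moved many of the 36. The mean of B minus A had a median of -0.11 and ranged between -1.03 for AT5G14120 and 0.59 for AT3G61210, and its median size was 0.19, against 0.13 over all probe sets. Every group holds one array of each letter, so the letter leaves the differences unchanged and widens their error, with a median standard error between 12 and 17 °C of 0.138 without the block and 0.097 with it. The array control probe sets, 64 in all and outside the tests, had none called between 12 and 17 °C or between 8 and 10 °C. At 78 h, however, they ranged between -0.92 and 0.82 in the first of these.

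Pathway lists gave the surroundings of the 36, as far as their genes were named on the arrays. Genes called measured here are those matched to a probe set listed with a single gene. They were 1 of 23 clock genes, 2 of 19 glucosinolate genes, 3 of 16 auxin response genes and 5 of 18 sugar starvation genes. Of the other lists they were 4 of 9 CBF regulon genes, 10 of 26 wall enzymes, 3 of 11 leaf markers and all 3 root markers. None of the named list genes passed limma's adjusted p between 12 and 17 °C at either harvest without the block. With it the CBF regulon, which protects cells in the cold, had LTI30 higher at 78 h by 1.21, and LTI30 and COR47 higher at 6 h by 1.85 and 1.28, 2 of 4 genes measured. The single clock gene measured, GI, was higher at 12 °C by 0.63 at 6 h. For the mean of both harvests, with the block alone, EXPA8 (-0.91), EXPA16 (-0.79) and AKINBETA1 (-0.49) were lower at 12 °C. LTI30 (1.53) and COR47 (0.71) were higher. EXPA8 met the threshold of the rule and was left out of the 36 by name. Its differences in A and B were -2.72 and -2.12 at 78 h and -1.89 and -1.99 at 6 h. Of 5 sugar starvation genes measured, AKINBETA1 alone is among the 36. The differences of the rule at 78 h, in A and B, were -0.70 and -0.50 for MCCA and -0.25 and -0.10 for MCCB. They were -0.51 and -0.38 for IVD and -0.55 and -0.24 for SEN5. At 6 h they were -0.60 and -1.03 for MCCA and -0.50 and -0.56 for MCCB. For IVD they were -0.12 and -0.10, and for SEN5 0.65 and -0.49. Between harvests at the mild temperatures 2 of these 5 genes rose, AKINBETA1 and the leucine-breakdown gene MCCA by 0.43. With the block MCCB (0.25) and SEN5 (0.99) passed too, and IVD did not. GI fell by 0.53 with the block alone (limma adjusted p = 0.000344, and 0.233 without it). In the same comparison, of 10 expansins and XTH wall enzymes EXPA8 rose and EXPA16 fell, and with the block XTH27 and XTH33 passed too, by 0.31 and 0.15. None of 3 auxin response genes, 2 glucosinolate genes or 4 CBF regulon genes passed without the block. With it GH3.3 was lower by -0.18, LTI30 by -0.38 and COR47 by -0.61, and neither glucosinolate gene passed. Of 3 leaf markers, LHCB4.1 lay between 14.14 and 14.53 over the 24 arrays, and LHCB4.2 and LHCB4.3 rose at 78 h by 0.38 and 0.80. Of 3 root markers PYK10 lay between 7.09 and 10.00 and fell by 1.02 at 78 h, while EXPA7 lay between 5.77 and 6.23 and EXPA18 between 5.38 and 5.82, and neither passed. The values carry no detection call, and presence or absence of a marker is not read from them. The part of these markers in the results on the 36 was not tested.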

How the data were processed

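The values deposited by the authors were normalized between the 24 arrays and are taken as log2 signals, a base inferred from their range (3.87 to 14.81), since the sources used here name neither the base nor the software, background correction or normalization. They were used as deposited. Array medians lay between 7.15 and 7.25. The 64 array control probe sets were left out, and 22746 were tested. Genes came from the given probe set annotation: 13513 probe sets have a single gene, 503 several and 8730 none listed. All 36 members matched the TAIR10.1 gene table. Sequences and promoter motifs were not analysed here.

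A mean for each of the 12 groups was fitted to all arrays with limma 3.58.1 in R 4.3.3 (empirical Bayes, 12 residual degrees of freedom, Benjamini-Hochberg over all 22746), and Python 3.11.15 with pandas 2.3.3 made the summaries. The code was also run on simulated data, which held no effect of the letter, and nothing is read from that run. Differences between B and A arrays of a group correlated between 0.52 and 0.89 over all 66 pairs of groups (median 0.67), so the letters pair the arrays, and fits with the letter as a block (11 degrees of freedom) are given where they change a call. Blocked calls rest on the same differences and are no separate support.

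The members, the gene lists and the comparisons were chosen with earlier results of these data known, and 2 contrasts were added after seeing the data. Every array is given for the 12 members with the lowest mean difference and for those with a symbol or described function, 30 in all, and list genes are named where called. List genes were looked up only among probe sets annotated with a single gene. Of the 11 lists, aquaporins, the growth genes of PIF, gibberellin and brassinosteroid, and flower and seed markers had no gene matched there. Also tried were cyclic loess, median centring, a filter that drops the dimmest 25%, trend and robust moderation, each harvest alone, leaving out each array, and other thresholds of the rule.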

Additional observations from a re-analysis of the deposited data

How the results depend on the processing

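The number of genes that met the rule was 36, against 79 with a threshold of -0.6, 11 with -1.0 and 61 with the mean over both letters in place of each letter, all 36 being among the 79 and the 61. Median centring gave 35, all among the 36, and cyclic loess 31, of which 30 were. Between 12 and 17 °C at 6 h, 1 member passed, against 9 with the letter as a replicate block, 0 with the harvest fitted alone and 0 to 1 without 1 array. At 78 h 0 passed, against 1 with the replicate block. For the mean of both harvests 2 passed, against 23 with the replicate block, 1 after median centring and 1 to 3 without 1 array. Between harvests at 17, 14 and 12 °C 13 rose, against 25 with the replicate block and 9 to 14 without 1 array. The block moved counts because its error is smaller at equal differences. No other comparison had a call with or without it among the 36. The median between 8 and 10 °C at 6 h changed sign without the B array of 10 °C (-0.05). Over all probe sets, the calls between 12 and 17 °C at 6 h were 13 lower, against 97 with the block and 1 to 15 without 1 array, and at 78 h 0 lower, against 28 with the block. Between harvests at the mild temperatures 570 were higher and 580 lower, against 1940 and 2360 with the block, and as few as 275 and 270 without 1 array. The number of arrays, 2 a group, limits the precision of every difference.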
